A study of Mus musculus with 6 samples.

Results

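The collagens described here are the protein-coding genes of the deposited table whose symbols have the form Col, a number, a and a number, each of which encodes 1 collagen chain. The rule took 44 of the 45777 genes in the table, and it takes collagen chains by name, whatever tissue they are known from. They were measured by RNA-seq in the striatum of 6-week-old ICR mice, an outbred strain. The mice were offspring (F1) of males that had received either methylphenidate at 15 mg/kg or saline at 10 mL/kg under the skin daily for 21 days from 6 weeks of age, and of females that received no drug. Methylphenidate (MPH) blocks the dopamine and noradrenaline transporters. The offspring themselves are not labelled as treated. Each group had 3 libraries, labelled as 2 females and 1 male, and the comparison asked how the offspring of the 2 kinds of sire differed. Columns of the table could be tied to a group but not to a labelled animal, so libraries are called saline-sired 3, 4 and 5 and MPH-sired 2, 4 and 6 after their column numbers. The sources used here do not give how many sires and litters there were. Animals of a group may be related, and p-values reflect only the spread among these 6 libraries.

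Collagens, most of them secreted, are proteins of 3 chains wound into a triple helix, in which every triplet of residues starts with glycine. Fibrillar collagens (types I, II, III, V, XI, XXIV and XXVII) assemble into banded fibres, and in the brain types I and III are made mainly by fibroblasts of the meninges and of the larger vessels. Type IV collagen forms the sheet-like network of basement membranes. In the brain its Col4a1 and Col4a2 chains come mainly from endothelial cells and pericytes, and types XV and XVIII (multiplexins) also lie in basement membranes. Other collagens form beaded filaments (type VI), hexagonal lattices (types VIII and X), coats on the surface of fibrils (FACITs) or sit in the cell membrane (types XIII, XVII, XXIII and XXV).

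The difference between fibre and sheet can be read in the coding sequence, and 3 stretches show it, with the glycine codon that opens each triplet in capitals (5′ to 3′, GENCODE vM21 transcripts, mm10). The Col1a1 stretch (chr11:94939451-94939939, plus strand, 3 coding exons with the introns left out, codons 168 to 197) is the first 10 triplets of an unbroken run of 338. The Col4a1 stretch (chr8:11244395-11245084, minus strand, 3 coding exons with the introns left out, codons 148 to 187) and the Col8a1 stretch (chr16:57627493-57627588, minus strand, 1 coding exon, codons 520 to 551) each hold 5 triplets, a break in the repeat, and 5 more triplets. In Col8a1 the ggg in small letters is also a glycine codon and can open a triplet with the codons after it. The place of the Col8a1 break thus depends on how triplets are read. The Col4a1 break also holds glycine codons in small letters (ggc and gga, read in frame), which open no run of 5 or more triplets.
Col1a1: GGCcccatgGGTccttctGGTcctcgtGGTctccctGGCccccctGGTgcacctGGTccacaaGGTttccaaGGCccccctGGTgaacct
Col4a1: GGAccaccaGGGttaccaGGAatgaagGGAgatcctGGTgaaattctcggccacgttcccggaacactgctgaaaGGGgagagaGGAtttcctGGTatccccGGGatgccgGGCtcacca
Col8a1: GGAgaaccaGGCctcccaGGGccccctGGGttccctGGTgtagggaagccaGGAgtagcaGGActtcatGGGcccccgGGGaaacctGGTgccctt

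Over the 11 fibrillar genes the longest unbroken run was 337 to 344 triplets, apart from Col24a1 with 216 and Col27a1 with 217. In the 6 type IV genes it was 39 to 66 triplets, and in Col4a1 the repeat was split into 22 blocks of at least 5 triplets. Col8a1 and Col8a2, the chains of type VIII, had 60 and 59. The 2 multiplexins had 30 each, and Col26a1 had the shortest run of all 44, with 23.

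**Figure D1:**
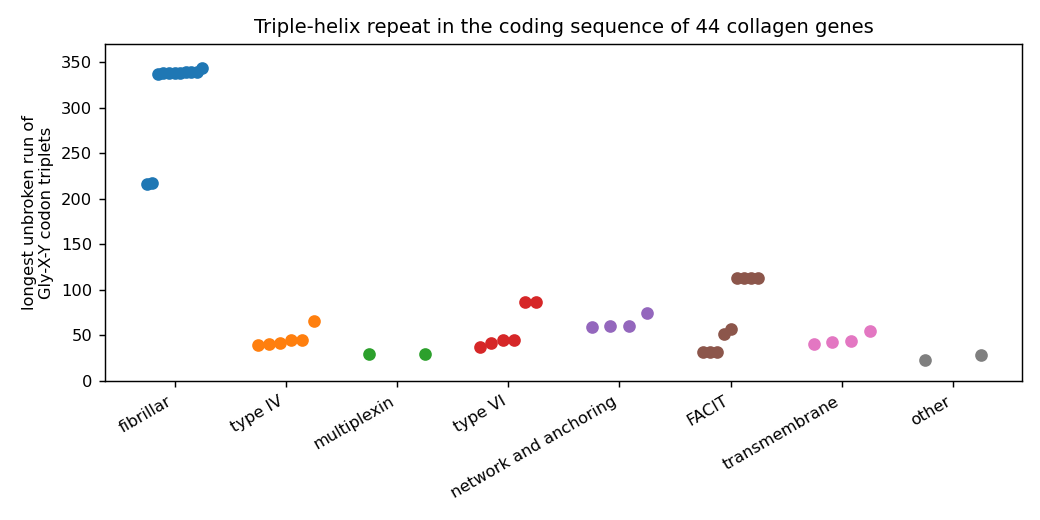
Longest unbroken run of Gly-X-Y codon triplets (y axis, number of triplets) in the longest coding transcript of each of the 44 collagen genes, by class (x axis), with 1 point per gene. The fibrillar genes lie at 216 to 344 triplets, above every other class.

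Total counts were 31360042 to 38844724 per library, of which the 44 genes took 0.0429% to 0.0516%. CPM denotes counts divided by the TMM-scaled library size. As a check of the labelled tissue, markers of medium spiny neurons, the main neurons of striatum, summed to 7720 to 9867 CPM in every library. The cells that make brain collagens were also detected in each library. Endothelial markers (11 genes, led by Flt1) summed to 239 to 303 CPM, pericyte markers (8 genes, led by Rgs5) to 174 to 216 CPM, and markers of meningeal and perivascular fibroblasts (10 genes, led by Dcn and Islr) to 18.7 to 27.8 CPM. Saline-sired library 3 stood apart in choroid plexus markers, which summed to 2159 CPM there and to 34.4 to 387 CPM in the other 5. In bulk tissue, fewer cells of a type and less RNA per cell cannot be told apart.

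Compared per kilobase, 5 collagens led, and their order depended on the length used. Per kilobase of the longest coding transcript, Col25a1, a membrane collagen known to be made by neurons, averaged 24.4 CPM per kb over the 6 libraries, followed by Col6a1 (17.1), Col11a2 (8.05), Col4a2 (7.91) and Col4a1 (6.43). That transcript of Col25a1 is 2.624 kb long, while all its annotated exons cover 12.947 kb. Per kilobase of all annotated exons, a length chosen after the data were seen, Col6a1 came first at 16.0 CPM per kb, before Col4a2 (7.70), Col11a2 (6.32), Col4a1 (5.70) and Col25a1 (4.94). The chains of fibres usual in meninges were lower by either length, at 1.49 or 0.639 CPM per kb for Col1a2, 0.688 or 0.39 for Col3a1 and 0.658 or 0.595 for Col1a1. The 5 genes listed at 0 in at least 1 library (Col2a1, Col4a3, Col4a4, Col9a1 and Col10a1) were among the 7 lowest by both lengths. Vessels and meninges are the known source of only some of the members, and these levels in bulk tissue do not measure a source.

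All 44 collagen genes passed the filter on low counts and were tested. No collagen passed edgeR's quasi-likelihood test at an adjusted p of 0.05, where 4 of 17874 genes (0.0224%) did, and the smallest adjusted p among the collagens was 0.47. DESeq2 called 1.42% of its genes and none of the 27 collagens it gave an adjusted p (smallest 0.16, for Col8a1), and limma-voom called no collagen (smallest 0.442). The log2 fold changes, MPH-sired minus saline-sired, were negative for 27 collagens and positive for 17, with a median of -0.11 against -0.01 over all genes tested. At an unadjusted p under 0.05, 6 collagens were lower (Col4a3, Col8a1, Col8a2, Col9a3, Col26a1 and Col27a1) where 3.95% of all genes tested were. Another 2 were higher (Col22a1 and Col25a1), where 5.07% of all genes were. Without saline-sired library 3, no collagen was lower at that level, where 2.98% of all genes were, and Col22a1 alone was higher, where 3.9% were. Without saline-sired library 5, 10 were lower and 6 higher, where 5.34% and 7.61% of all genes were. Without MPH-sired library 6, Col26a1 was lower and none was higher, where 2.6% and 3.22% of all genes were. By DESeq2 5 were lower and 1 higher (2.45% and 3.51% of all genes), and by limma-voom 3 were lower and 2 higher (3.89% and 5.34% of all genes).

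**Figure D2:**
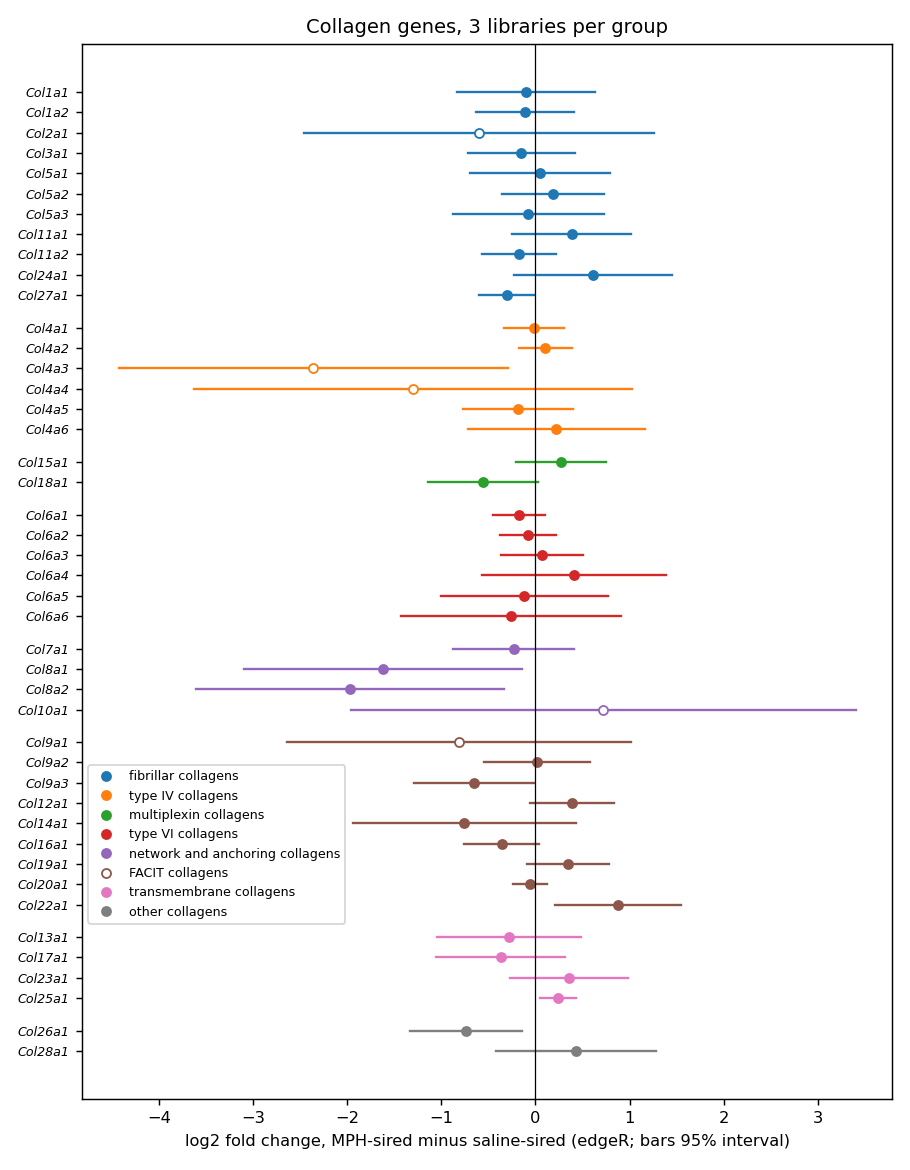
Log2 fold change (x axis, MPH-sired minus saline-sired, edgeR) of the 44 collagen genes (y axis) by class, with bars for the 95% interval and 3 libraries per group. Open points are the 5 genes listed at 0 in at least 1 library, whose fitted values take in those zeros. None of the 44 genes passed the test after adjustment over 17874 genes.

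The fibrillar collagens overlapped between the groups. Their 11 genes summed to 91.3, 112 and 101 CPM in libraries 3, 4 and 5 of saline-sired mice, and to 106, 85.8 and 104 CPM in MPH-sired libraries 2, 4 and 6. The highest and the lowest sum lay in saline-sired 4 and MPH-sired 4, and the log2 ratio of the group means was -0.04. Of the 11 log2 fold changes 7 were negative and 4 positive, with a median of -0.10. As a share of all collagen counts the fibrillar genes took 21.2% ± 2.98 (SD, n = 3) in the saline-sired and 21.1% ± 1.5 (SD, n = 3) in the MPH-sired libraries.

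Col1a1 and Col1a2 encode the chains of type I collagen, the main fibre of meninges and adventitia. Col1a1 was at 3.83, 5.18 and 3.11 CPM in libraries 3, 4 and 5 of saline-sired mice and at 5.66, 2.69 and 2.96 CPM in MPH-sired libraries 2, 4 and 6. Its lowest and its highest value were both MPH-sired, and its log2 fold change was -0.10 (95% interval -0.83 to 0.63, edgeR adjusted p = 0.953). Col1a2 was at 9.16, 9.61 and 5.97 CPM against 9.65, 6.07 and 7.19 CPM, in the same order of libraries, with a log2 fold change of -0.11 (-0.63 to 0.41). Col3a1, the single chain of type III, was at 3.98, 5.02 and 3.08 CPM against 4.51, 2.75 and 3.64 CPM, a log2 fold change of -0.15 (-0.72 to 0.42). All 3 genes were high in saline-sired 3 and 4 and MPH-sired 2 and low in saline-sired 5 and MPH-sired 4, and neither group was high or low as a whole.

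Type V and type XI chains join the major fibres and set their width. Col11a2 was the most abundant fibrillar gene, at 35.7, 59.6 and 42.9 CPM in the saline-sired and 37.9, 38.9 and 45.7 CPM in the MPH-sired libraries, with a log2 fold change of -0.17 (95% interval -0.57 to 0.22). Its highest value was in saline-sired library 4. Col11a1 was lowest in that library, at 10.5, 6.31 and 14.2 CPM against 15.6, 10.4 and 14.6 CPM. The type V chains differed in which library led. Col5a1 was at 5.99, 4.43 and 11.1 CPM against 9.07, 7.39 and 5.77 CPM, highest in saline-sired library 5. Col5a2 was at 4.38, 5.18 and 3.34 CPM against 4.02, 4.29 and 6.36 CPM, highest in MPH-sired library 6. Col5a3 was at 2.14, 1.44 and 1.51 CPM against 2.37, 1.47 and 1.01 CPM, highest in MPH-sired library 2. Their log2 fold changes were 0.05, 0.19 and -0.07, and each interval spanned 0.

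The remaining fibrillar genes are Col2a1, the cartilage fibre, and the pair with the shorter helix. Col27a1 measured 10.7, 12.1 and 9.78 CPM in the saline-sired and 9.41, 8.11 and 8.82 CPM in the MPH-sired libraries. It was the only fibrillar gene whose groups did not overlap, with a log2 fold change of -0.31 (SE 0.13) and an adjusted p of 0.517 by edgeR. Col24a1 ran the other way, at 4.25, 2.26 and 5.71 CPM against 7.06, 3.76 and 7.84 CPM, with groups that overlapped and a log2 fold change of 0.61 (95% interval -0.22 to 1.45). Col24a1 and Col11a1 were both lowest in saline-sired library 4, the library with the lowest sum of cortical excitatory neuron markers (229 CPM, against 462 to 870 in the others). Col24a1 was next lowest in MPH-sired library 4, where that sum was second highest, at 790 CPM. Col11a1 was nearly level in MPH-sired library 4 (10.42 CPM) and saline-sired library 3 (10.49 CPM), where that sum was 790 and 462 CPM. The part of these neurons in their values was not tested. Col2a1 had 26, 18 and 22 counts in the saline-sired libraries and 22 and 20 in MPH-sired 2 and 6, and was listed at 0 in MPH-sired library 4, so its fitted fold change, which rests on that 0, is shown only as an open point in the plot of fold changes.

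**Figure D3:**
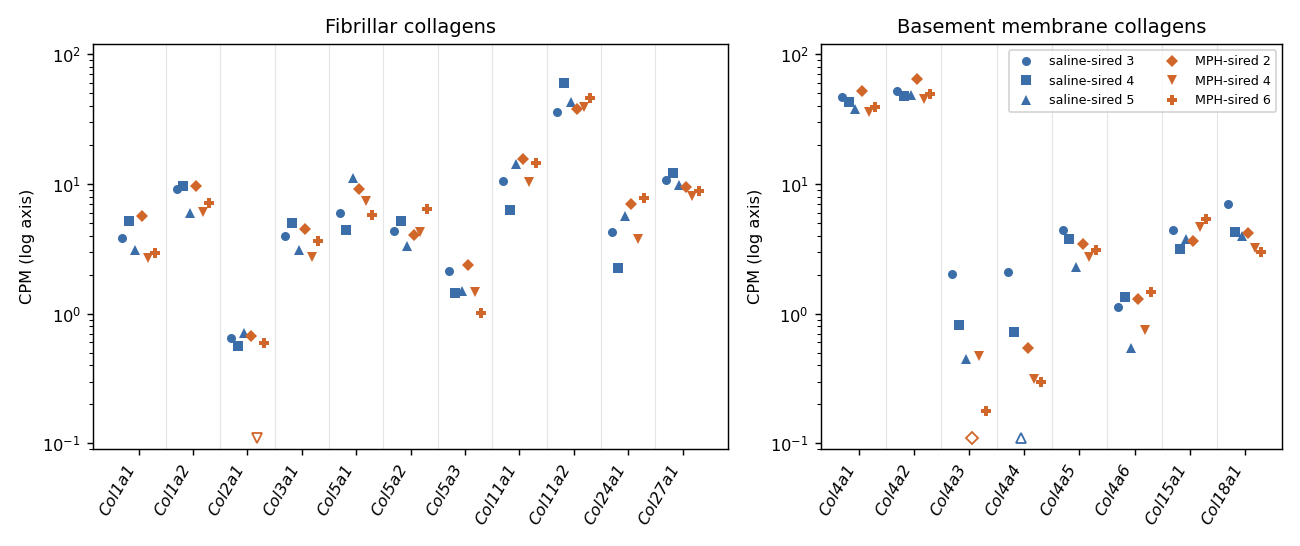
CPM (y axis, log) of the 11 fibrillar and 8 basement membrane collagen genes (x axis) in the 3 saline-sired (blue) and 3 MPH-sired (orange) libraries, with 1 symbol per library. Open symbols at the bottom mark libraries in which a gene was listed at 0. The groups overlap for every gene shown except Col27a1, and Col4a3, Col4a4, Col4a5 and Col18a1 are highest in saline-sired library 3.

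The basement membrane collagens also overlapped between the groups. Their 8 genes summed to 120, 105 and 97.2 CPM in libraries 3, 4 and 5 of saline-sired mice and to 129, 93.6 and 102 CPM in MPH-sired libraries 2, 4 and 6, with a log2 ratio of the means of 0.01. The log2 fold change was negative for 5 and positive for 3, with a median of -0.10. They took 22.3% ± 1.53 (SD, n = 3) of collagen counts in the saline-sired and 23.0% ± 2.29 (SD, n = 3) in the MPH-sired libraries.

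Most of that sum was Col4a1 and Col4a2, the chains of the common form of type IV collagen. Col4a1 measured 47.2, 43.1 and 38.0 CPM in the saline-sired and 51.7, 35.9 and 39.4 CPM in the MPH-sired libraries. Its log2 fold change was -0.02 (95% interval -0.34 to 0.31, edgeR adjusted p = 0.985). Col4a2 was at 51.8, 47.3 and 48.1 CPM against 63.9, 45.5 and 49.2 CPM, a log2 fold change of 0.11 (-0.17 to 0.39, edgeR adjusted p = 0.828). For both genes the highest value was in MPH-sired library 2 and the lowest in MPH-sired library 4. The 2 genes lie head to head on opposite strands of chromosome 8, Col4a1 at 11198423 to 11312826 and Col4a2 at 11312805 to 11449287 (GRCm38), and their exons overlap by 22 bases.

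The other type IV chains were low. Col4a5 was at 4.40, 3.74 and 2.31 CPM against 3.44, 2.72 and 3.08 CPM, and Col4a6 at 1.13, 1.35 and 0.545 CPM against 1.31, 0.751 and 1.48 CPM. The groups overlapped for both. Col4a3 had 81, 26 and 14 counts in libraries 3, 4 and 5 of saline-sired mice and 15 and 6 in MPH-sired 4 and 6, and was listed at 0 in MPH-sired 2. Col4a4 had 83 and 23 counts in saline-sired 3 and 4 and 18, 10 and 10 in MPH-sired 2, 4 and 6, and was listed at 0 in saline-sired 5. Both were highest in saline-sired library 3, and their fitted fold changes depend on that library as well as on these zeros. The log2 fold change of Col4a3 was -2.36 with all libraries and -1.55 without saline-sired library 3. For Col4a4 it was -1.30 and 0.0833, and its 0 is in a saline-sired library. A 0 in 1 library only can be a failed estimate, and 88 of the 17874 genes tested were at 0 in 1 library with at least 10 counts in each of the other 5.

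The multiplexins carry a C-terminal fragment, known as endostatin in Col18a1, that can be cut free. Col15a1 measured 4.43, 3.14 and 3.78 CPM in the saline-sired and 3.65, 4.66 and 5.38 CPM in the MPH-sired libraries, a log2 fold change of 0.27 (95% interval -0.21 to 0.75). Col18a1 was at 6.97, 4.27 and 3.94 CPM against 4.17, 3.22 and 2.99 CPM, a log2 fold change of -0.55 (-1.14 to 0.03). The highest value was in saline-sired library 3, and without that library the log2 fold change of Col18a1 was -0.25.

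Set beside markers of the cells that make them, the vessel collagens were high and low in the same libraries as those markers. Col4a1 and Col4a2 together reached 99.1, 90.5 and 86.1 CPM in libraries 3, 4 and 5 of saline-sired mice and 116, 81.4 and 88.6 CPM in MPH-sired 2, 4 and 6. Endothelial markers summed to 291, 289 and 252 CPM and to 303, 239 and 275 CPM. Pericyte markers summed to 211, 190 and 181 CPM and to 216, 174 and 185 CPM. From high to low, the 6 libraries stood in the same order in all 3 sums (MPH-sired 2, saline-sired 3, saline-sired 4, MPH-sired 6, saline-sired 5 and MPH-sired 4), which share each library's scaling, so the order is a description. The ratio of the pair to endothelial markers was 0.332 ± 0.0162 (SD, n = 3) in the saline-sired and 0.348 ± 0.0303 (SD, n = 3) in the MPH-sired libraries, and the groups overlapped.

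Col1a1, Col1a2 and Col3a1 together reached 17.0, 19.8 and 12.2 CPM in the saline-sired and 19.8, 11.5 and 13.8 CPM in the MPH-sired libraries. Fibroblast markers summed to 24.8, 27.8 and 20.9 CPM and to 23.3, 18.7 and 19.6 CPM. Both sums were lowest in MPH-sired library 4. The ratio of these collagens to fibroblast markers was 0.684, 0.712 and 0.582 in the saline-sired and 0.850, 0.618 and 0.703 in the MPH-sired libraries, highest in MPH-sired 2, and the groups overlapped.

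**Figure D4:**
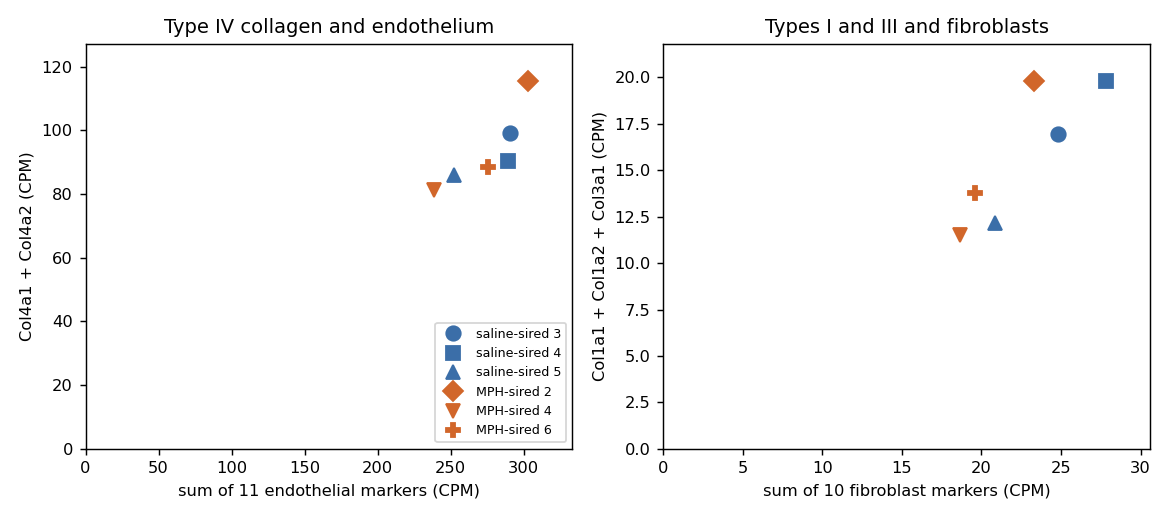
Left: Col4a1 plus Col4a2 (y axis, CPM) against the sum of 11 endothelial markers (x axis, CPM). Right: Col1a1, Col1a2 and Col3a1 (y axis, CPM) against the sum of 10 fibroblast markers (x axis, CPM). Each point is 1 library, blue for saline-sired and orange for MPH-sired. In the left panel MPH-sired library 2 is highest and MPH-sired library 4 lowest on both axes, and in both panels the groups overlap.

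Type VI collagen forms beaded filaments near cell surfaces, built from Col6a1, Col6a2 and 1 further chain. The 6 genes summed to 99.7, 92.7 and 102 CPM in the saline-sired and 97.1, 94.4 and 76.2 CPM in the MPH-sired libraries, lowest in MPH-sired library 6. Col6a1 made up most of this, at 78.4, 67.6 and 76.7 CPM against 75.0, 68.5 and 53.9 CPM, with a log2 fold change of -0.17 (95% interval -0.45 to 0.10). Col6a2 was at 14.6, 17.3 and 19.0 CPM against 15.0, 18.2 and 14.9 CPM, and Col6a3 at 2.77, 3.71 and 3.91 CPM against 3.47, 3.57 and 3.82 CPM. Per kilobase of the longest coding transcript, Col6a1 was 3.49 to 5.17 times the level of Col6a2 over the 6 libraries, and per kilobase of all annotated exons 6.89 to 10.2 times. Col6a4 was at 1.46, 2.2 and 0.577 CPM against 1.77, 2.25 and 1.63 CPM, and Col6a5 at 1.86, 1.48 and 0.674 CPM against 1.00, 1.5 and 1.21 CPM, both lowest in saline-sired library 5. Col6a6 was at 0.679, 0.471 and 1.28 CPM against 0.852, 0.313 and 0.858 CPM. The groups overlapped for all 6 genes.

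Among the members not listed at 0 in any library, type VIII collagen differed most between libraries. It is the short-chain lattice of endothelium and of the cornea. Col8a1 was at 10.1, 2.57 and 1.41 CPM in libraries 3, 4 and 5 of saline-sired mice and at 1.46, 1.28 and 1.86 CPM in MPH-sired 2, 4 and 6. Col8a2 was at 9.29, 2.29 and 0.994 CPM against 0.883, 1.1 and 1.24 CPM. Both chains were high in saline-sired library 3, next highest in saline-sired 4 and low in the other 4, and the groups overlapped. The log2 fold changes of -1.62 (SE 0.65) for Col8a1 and -1.97 (SE 0.71) for Col8a2 had adjusted p of 0.507 and 0.484 by edgeR. Without saline-sired library 3 they were -0.38 and -0.62.

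Other collagens were highest in the same library. Col9a3, a FACIT chain of type IX, measured 26.7, 18.5 and 10.6 CPM in the saline-sired and 12.4, 12.1 and 11 CPM in the MPH-sired libraries, a log2 fold change of -0.66 (SE 0.28) that was -0.30 without saline-sired library 3. Exons of Col9a3 overlap Tcfl5 on the opposite strand over 6.07% of their length, and the sources used here do not say whether reads were counted by strand. Col26a1 was at 12.1, 5.81 and 7.15 CPM against 4.78, 4.69 and 5.59 CPM. Its groups did not overlap, and its edgeR adjusted p was 0.475. The log2 fold change of -0.74 (SE 0.26) was -0.37 without saline-sired library 3. In all, saline-sired library 3 held the highest value of 14 of the 44 collagens (31.8%), where it held the highest value of 19.7% of all genes tested. These included 4 of the 8 basement membrane genes and none of the 11 fibrillar genes.

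Choroid plexus markers were also highest in saline-sired library 3. Their sum was lowest in saline-sired library 5, where Col26a1 had its next highest value. The 13 markers summed to 2159, 387 and 34.4 CPM in libraries 3, 4 and 5 of saline-sired mice and to 39.7, 92.5 and 60.2 CPM in MPH-sired 2, 4 and 6, and all 12 that were tested had negative log2 fold changes. Ttr, which led them in abundance, had 1905, 306 and 9.88 CPM against 14.7, 61.3 and 33.6 CPM. Kcne2, Tmem72 and Slc4a5 were listed at 0 in at least 1 library other than saline-sired 3 and 4. Ependymal markers summed to 21.2, 12.7 and 10.9 CPM against 9.83, 9.70 and 10.4 CPM. The part of choroid plexus or ependyma in the values of Col8a1, Col8a2, Col9a3, Col18a1, Col26a1, Col4a3, Col4a4 and Col4a5 was not tested.

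**Figure D5:**
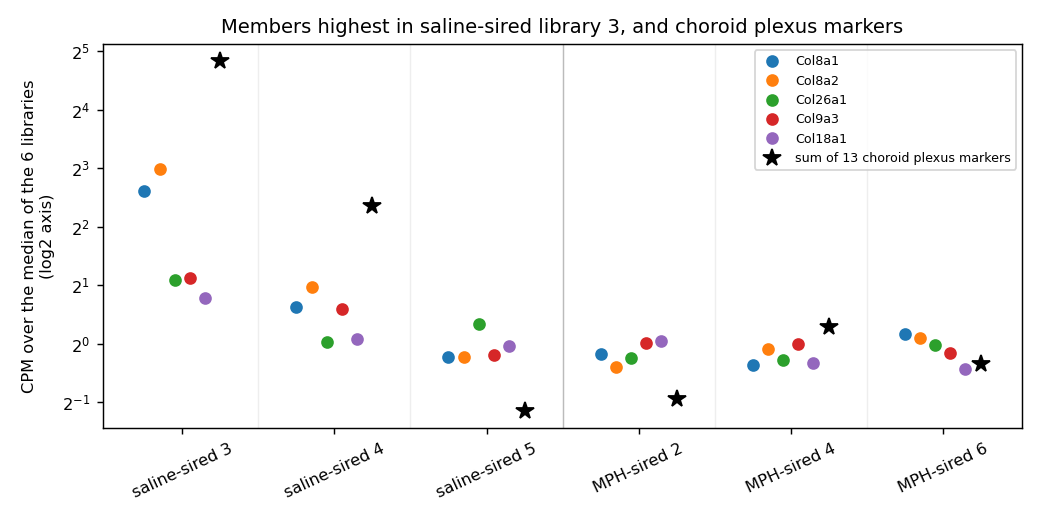
CPM of Col8a1, Col8a2, Col26a1, Col9a3 and Col18a1 and the sum of 13 choroid plexus markers (stars), each over its median of the 6 libraries (y axis, log2), by library (x axis). The 5 genes were picked from the 14 collagens highest in saline-sired library 3, so their peak there follows from the choice. The marker sum was also highest there, at 2159 CPM.

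The other network and anchoring collagens were low. Col7a1, the anchoring fibril of skin, ranged from 2.2 to 3.45 CPM in the saline-sired and from 1.63 to 3.01 CPM in the MPH-sired libraries. Col10a1, a chain of growth cartilage, had at most 17 counts and was listed at 0 in saline-sired 4 and MPH-sired 6.

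In the opposite direction stood the membrane collagen Col25a1 and the FACIT Col22a1, the collagens of which every MPH-sired library lay above every saline-sired one. Such a separation was found for 7.84% of all genes tested in that direction, against 2 of 44 collagens. Col25a1 measured 57.2, 53.1 and 65.6 CPM in the saline-sired and 67.7, 70.0 and 70.3 CPM in the MPH-sired libraries. Its log2 fold change was 0.24 (SE 0.08, 95% interval 0.05 to 0.44) with an edgeR adjusted p of 0.47. Col22a1, known from junctions of muscle with tendon, was at 0.654, 0.659 and 0.609 CPM against 1.13, 1.03 and 1.39 CPM, on 19 to 47 counts per library, a log2 fold change of 0.88 (SE 0.29) with an edgeR adjusted p of 0.47. In the downward direction 3 collagens were apart, Col20a1, Col26a1 and Col27a1, where 7.01% of all genes were. The separation of Col20a1, another FACIT, was narrow, with 18.8, 18.8 and 19.4 CPM against 18.1, 18.5 and 18.1 CPM and a log2 fold change of -0.06 (SE 0.08).

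Markers of cortical excitatory neurons also separated the groups. Their 8 genes summed to 462, 229 and 631 CPM in libraries 3, 4 and 5 of saline-sired mice and to 756, 790 and 870 CPM in MPH-sired 2, 4 and 6. Markers of medium spiny neurons were apart the other way, at 9025 to 9867 CPM against 7720 to 8553 CPM. Col25a1 was lowest in saline-sired library 4 and highest in MPH-sired library 6, as was the cortical sum. Between them the other libraries also stood in the same order in both (saline-sired 3 and 5, then MPH-sired 2 and 4). Both share each library's scaling, so the order is a description, and the part of these cells in the value of Col25a1 was not tested. Col19a1, a FACIT known from interneurons, was at 17.6, 17.1 and 27.0 CPM against 26.1, 21.9 and 30.4 CPM, with the same 2 libraries at the ends. Between those ends it was lower in MPH-sired library 4 than in saline-sired library 5, and the cortical sum was not. The groups overlapped for Col19a1, with a log2 fold change of 0.35 (95% interval -0.09 to 0.79).

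The remaining FACITs overlapped between the groups. Col16a1, a minor component of skin and cartilage matrix, ranged from 9.88 to 16.2 CPM in the saline-sired and from 9.74 to 10.8 CPM in the MPH-sired libraries, and Col12a1, which binds type I fibres, from 3.67 to 5.06 and from 4.82 to 6.61 CPM. Col14a1, a near relative of Col12a1, ranged from 0.577 to 2.35 and from 0.563 to 1.24 CPM. Col9a2, a partner chain of Col9a3, was highest in saline-sired 3, at 10.8 CPM, and ranged from 6.19 to 9.41 CPM elsewhere. Col9a1 had 11 to 16 counts in 5 libraries and was listed at 0 in MPH-sired 2. The membrane collagens Col13a1, Col17a1 and Col23a1 lay at 0.473 to 0.755, 0.769 to 1.28 and 3.10 to 7.18 CPM, and Col28a1, a collagen with von Willebrand factor type A domains, at 0.503 to 1.24 CPM, each with overlapping groups.

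Genes that make, cut, bind and break down collagen were described from lists of their own, and no member of these lists passed the edgeR test. Their signs are to be read against all genes tested, of which 53.0% had negative log2 fold changes. Among 20 folding and modifying genes 15 log2 fold changes were negative and 5 positive, with a median of -0.06. Of these, Ppib, a prolyl isomerase of the endoplasmic reticulum, measured 61.9, 57.5 and 49.5 CPM in the saline-sired and 49.3, 47.3 and 47.0 CPM in the MPH-sired libraries (log2 fold change -0.24, edgeR adjusted p = 0.491). P3h2, a prolyl 3-hydroxylase that acts on basement membrane collagen, was at 1.84, 1.48 and 1.12 CPM against 2.28, 3.07 and 1.89 CPM (0.70, edgeR adjusted p = 0.515). The groups did not overlap for either gene, both shown for their low p, nor for Mia3, which was higher in the MPH-sired libraries. Of the 20 genes, 1 was apart below and 2 above, where 7.01% and 7.84% of all genes tested were. Of 12 tested genes of procollagen processing and crosslinking, 10 had negative and 2 positive values, with a median of -0.25. Pcolce2, an enhancer of procollagen cleavage, was at 7.78, 5.56 and 3.78 CPM against 2.92, 3.94 and 3.20 CPM, a log2 fold change of -0.77. Loxl3, a lysyl oxidase that crosslinks chains, was at 5.76, 4.43 and 3.98 CPM against 2.62, 3.10 and 4.08 CPM, a log2 fold change of -0.53. Both genes were highest in saline-sired library 3, the library with the highest choroid plexus sum, as was Pcolce, a near relative of Pcolce2 named after its values were seen, at 10.4 CPM there and 1.28 to 3.64 CPM elsewhere. The part of choroid plexus in these values was not tested.

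Collagen receptors had a median of -0.11 over 9 tested genes, 6 negative and 3 positive. Mrc2, an endocytic collagen receptor, was at -0.28, and Adgrg1, a receptor of type III collagen, at -0.16. The 15 other basement membrane genes had a median of -0.10, with 11 negative and 4 positive. Hspg2, which encodes perlecan, was at 21.0, 20.9 and 12.5 CPM against 14.0, 10.1 and 13.9 CPM (log2 fold change -0.52, edgeR adjusted p = 0.52), and Lama4, a laminin chain of vessels, was at 0.27. Perlecan was high in saline-sired 3 and 4 and the groups overlapped.

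Small leucine-rich proteoglycans coat collagen fibrils. Of 8 genes, 5 had negative and 3 positive log2 fold changes, with a median of -0.14. Dcn, or decorin, measured 6.24, 9.01 and 7.41 CPM in the saline-sired and 4.84, 5.38 and 3.85 CPM in the MPH-sired libraries. Its groups did not overlap, and its log2 fold change of -0.69 (SE 0.19) had an adjusted p of 0.452 by edgeR. With Lum, 2 of the 8 genes were apart below, where 7.01% of all genes tested were. Fmod, or fibromodulin, was at 0.81 with its highest value in MPH-sired 2. Dcn, Lum and Ogn also stand among the fibroblast markers, so the 2 lists are not separate measurements. Of 7 tested genes of collagen breakdown and its inhibitors, 5 were negative and 2 positive with a median of -0.08. Timp3, an inhibitor of metalloproteinases bound to matrix, was at -0.17, and Mmp2, a gelatinase that degrades type IV collagen, at -0.62.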

How the data were processed

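Per the submitters' processing notes, reads were handled with bcl2fastq 2.20.0, Trimmomatic, HISAT2 2.1.0 and StringTie 2.1.3b on mm10. The authors' deposited table holds whole-number read counts per gene, not normalized. The sources used here do not say whether they are rounded estimates or whether strand was used. Another 12 per-sample columns were left unused. Counts were tested with edgeR 4.0.16 (R 4.3.3; TMM, filterByExpr, quasi-likelihood F test, Benjamini-Hochberg over 17874 genes, threshold 0.05). DESeq2 1.42.0, limma-voom (limma 3.58.1), RLE factors, no filter and leaving out each library were alternatives. Offspring sex was no covariate, since no label ties a column to an animal. Every pair of libraries differed by more than sampling noise (chi-square per gene 8.40 to 34.7). SE and intervals were derived from the F statistic. The fit was tested on simulated data, with changes set only in genes averaging above 1 CPM. There edgeR recovered 28.3% of genes given a log2 fold change of 0.5 in either direction and 86.1% of those given 1. Changes of the smaller size were thus often missed.

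The members and lists were chosen with earlier results of these data known. Per-library values were given for fibrillar, type IV, multiplexin and type VI genes, and for others with an unadjusted p under 0.05 or groups that did not overlap. Pathway lists were represented by their 2 genes of lowest p. Col10a1, Col14a1, Col19a1 and the remaining members were summarised, and Col19a1 was given in full after its values were seen. Sequences and, unless all annotated exons are named, lengths are from the longest coding transcript of GENCODE vM21, and a block was at least 5 triplets. Col21a1 was not analysed here. Exons of 13 collagen genes overlap another gene, which leaves their counts uncertain.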

Additional observations from a re-analysis of the deposited data

How the results depend on the processing

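No paired analysis was possible because the columns' animal numbers differ from those of the titles and are tied to a group only. No collagen passed the test under any of the 10 alternatives, and 27 of the 44 log2 fold changes kept their sign under all of them. Genes past the test numbered 183 by DESeq2 and 1 to 4 with a library left out. Collagens lower at an unadjusted p under 0.05 numbered 3 by limma-voom and 0 (without saline-sired library 3) to 10 (without saline-sired library 5) with a library left out. Collagens higher numbered 1 by DESeq2 and 0 (without MPH-sired library 6) to 6 (without saline-sired library 5). In the same fits, 2.98% and 5.34% of all genes were lower and 3.22% and 7.61% higher, against 3.89% lower by limma-voom and 3.51% higher by DESeq2. Leaving out a library moved the median log2 fold change of the fibrillar genes from -0.30 (without MPH-sired library 2) to 0.0408 (without MPH-sired library 4) and that of the basement membrane genes from -0.24 to 0.07. The latter median was 0.03 by limma-voom. Col4a4, listed at 0 in saline-sired library 5 and highest in saline-sired library 3, was at 0.25 by limma-voom. The other changes of sign came with a library left out, over a log2 fold change of -0.50 to 0.12 for Col1a1, -0.30 to 0.0408 for Col1a2, -0.32 to 0.0402 for Col3a1, -0.20 to 0.52 for Col5a1, -0.0493 to 0.34 for Col5a2, -0.44 to 0.18 for Col5a3 and -0.33 to 0.0556 for Col11a2. In the type IV genes the range was -0.17 to 0.10 for Col4a1, -0.0359 to 0.22 for Col4a2, -1.85 to 0.0833 for Col4a4, -0.39 to 0.0226 for Col4a5 and -0.0559 to 0.48 for Col4a6. It was -0.18 to 0.0231 for Col6a2, -0.0772 to 0.18 for Col6a3, -0.42 to 0.20 for Col6a5, -0.53 to 0.24 for Col6a6 and -0.13 to 0.34 for Col9a2. The cause was not tested. At the libraries' depth, 3 counts, taken as the floor for a gene listed at 0, are 0.0755 to 0.0962 CPM. That floor allows for sampling noise alone, and the libraries differed by more, so it is no upper limit.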
